A study of Mus musculus with 6 samples.

Results

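The RNAs described here are the small structural RNAs of the ribosome and of RNA processing: 5S ribosomal RNA, the U1, U2, U5, U6, U11 and U12 spliceosomal RNAs, U3, 7SK and 7SL. They were chosen by name, as the transcript clusters (the probe groups the array reports as units) whose platform annotation gave exactly 1 gene symbol, starting n-R5s, Rn5s, Rnu or Rn7s. The rule took 126 of 65956 transcript clusters, with 87 gene symbols, 70 of them for 5S and 17 for the other RNAs. Many of these clusters held identical values on every array, so a profile below means a distinct row of values, and the 126 clusters made 62 profiles. Of these, 39 were 5S, 7 U1, 2 U2, 1 U5, 2 U6, 1 U11, 1 U12, 6 U3, 2 7SK and 1 7SL. Rows that nearly repeat each other stay separate profiles in every count, such as Rnu3b1 and Rnu3b4, or Rnu1b6 and its second row.

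5S rRNA is transcribed by RNA polymerase III with the help of transcription factor IIIA and becomes part of the large ribosomal subunit. U1, U2, U5 and U6 are the RNA cores of the spliceosome, U11 and U12 serve the minor spliceosome, and U3 guides the cleavage of ribosomal RNA precursors in the nucleolus. 7SK holds the transcription elongation factor P-TEFb inactive, and 7SL is the RNA of the signal recognition particle, which brings secreted proteins to the endoplasmic reticulum.

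The 6 arrays measured total RNA of whole kidneys from female Pkd1 miR transgenic mice at postnatal day 63. In 3 the mice had been injected intraperitoneally with metformin, an antidiabetic biguanide, at 150 mg/kg per day from postnatal day 35, and in 3 with saline over the same period. Every mouse carried the transgene, which targets Pkd1, the gene mutated in most polycystic kidney disease, and no kidney without it was part of the comparison. No source used here names the promoter of the transgene or the cells that carry it, and the labels call the arrays biological replicates without saying how many mice they came from, so the p-values measure the spread between these samples.

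All values below are deposited log2 expression after robust multi-array averaging (RMA), and a change is the metformin mean minus the saline mean on that scale. Array medians lay between 4.67 and 4.86 and the highest values between 19.8 and 19.9. Upper quartiles were 7.21 to 7.34 on the metformin arrays, against 7.01 to 7.12 on the saline arrays. Kidney markers were present, among them Umod, the uromodulin of the loop of Henle, at 18.84 in metformin kidneys and 18.98 in saline kidneys, and the phosphate carrier Slc34a1 at 18.35 in metformin kidneys and 18.64 in saline kidneys. All 6 proximal tubule markers had lower means in metformin kidneys, with a median change of -0.76, none past the adjusted threshold of 0.05 in limma and 5 with an unadjusted p under 0.05. Of the adipocyte markers, all 6 tested of 8 had lower means and 1, Adipoq, passed. Their mean level, relative to the average of all arrays, was -0.88 to -0.80 on the metformin arrays and -0.46, 1.06 and 1.93 on the saline arrays. All 5 macrophage markers had higher means and 1, Lyz2, passed. Their mean level was 0.45, 0.50 and 0.23 on the metformin arrays and -0.52, 0.33 and -0.99 on the saline arrays. These levels overlapped between the groups. Both erythroid markers tested (Alas2 and Slc4a1) passed as lower. Of 4 collecting duct markers, 3 had lower means and 1, Aqp3, passed as lower (-0.73, adjusted p = 0.0212 in limma). In whole kidney, fewer cells of a type and less RNA per cell cannot be told apart, and the part of these markers in the results below was not tested.

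Of the 62 profiles, 61 were higher on average in metformin kidneys and 1 was lower. The median change was 0.46, or 1.38-fold, while the median over all 65956 clusters was 0.07. In 35 of the 62 (56.5%) the 3 metformin arrays all lay above the 3 saline arrays, against 20.1% of all clusters. Averaged over the 62 profiles, the metformin arrays stood at 0.20, 0.19 and 0.37 relative to the mean of all arrays, against -0.34, -0.28 and -0.14 for the saline arrays. Those averages did not overlap between the groups.

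The test was limma on all genes, 1 cluster per symbol, with p-values adjusted over 22086 genes by the Benjamini-Hochberg method. Of the 62 profiles, 59 passed the filter on low values, which left out the 33.3% of clusters with the lowest mean, and 47 entered as the brightest cluster of their symbol. At an adjusted p under 0.05, 14 of the 47 were higher in metformin kidneys and none was lower. The share called higher among all genes was 6.71%, and 9.08% of all genes were called lower. These shares, and those of all genes or all clusters below, count identical rows each time they occur. With identical rows counted once, as for the members, 6.21% of 21892 rows were called higher and 9.16% lower. The 14 calls were 5 of 34 5S profiles and 9 of 13 of the others. No member was called lower at an unadjusted p under 0.05 either. With the replicate numbers of the labels as a block, limma called 22 of the 47 higher, 12 of them 5S, against 8.81% of all genes. Without saline replicate 1 the count of 14 was 6, against 1.59% of all genes, and without metformin replicate 2 it was 9, against 2.65%. When every cluster past the filter was tested, 22 of 59 profiles were called higher, against 12.6% of 43970 clusters.

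**Figure D1:**
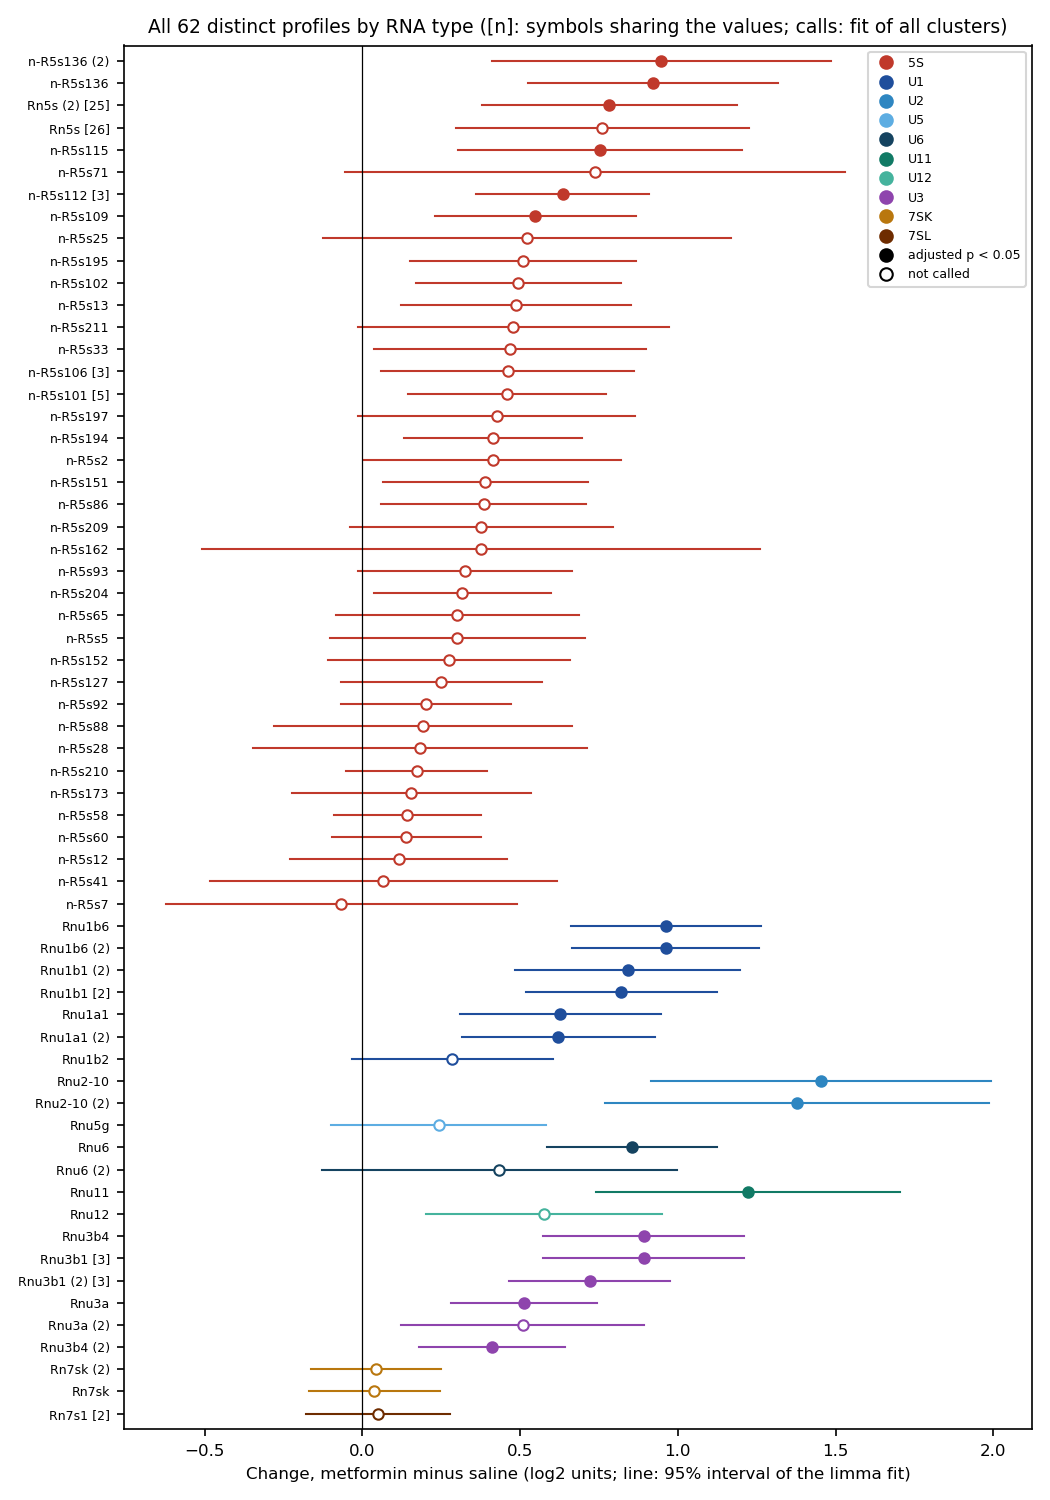
Change of each of the 62 profiles (x axis, metformin minus saline, log2 units) by RNA type, with the 95% interval of a limma fit over all 65956 clusters without a filter. Numbers in brackets count the symbols that share the values, (2) marks a second distinct row of a symbol, and filled points passed an adjusted p of 0.05 in that fit. All profiles except n-R5s7 lie right of 0, and the filled points are 6 of 39 5S profiles and 15 of 23 others.

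The plot of all profiles uses the fit that holds every cluster, in which 21 of the 62 profiles passed as higher, against 7.43% of all 65956 clusters. Its points show that the 5S changes spread from -0.07 to 0.95, while the U2 and U11 profiles lie at 1.22 or more.

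The 5S genes fell into a tandem block and scattered copies. In the RefSeq annotation of GRCm38.p6, 42 of the 70 symbols lay on chromosome 8 with another 5S gene starting within 50000 bases, and 41 of these 42 were annotated as rRNA. The other 28 were dispersed over the chromosomes, 11 annotated as rRNA and 17 as pseudogenes. Many copies shared identical values: 1 profile labelled Rn5s stood for 26 symbols, a second Rn5s profile for 25 of the same symbols, n-R5s101 for 5, and n-R5s112 and n-R5s106 for 3 each. A further 6 clusters outside the rule, each annotated with a second symbol and with Rn5s10, Rn5s17, Rn5s23, Rn5s28, Rn5s30 or Rn5s31, held the values of Rn5s unchanged. None of these copies can be told apart on this array.

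Of the 39 5S profiles, 38 were above 0, with a median change of 0.39 and a range of -0.07 to 0.95. In 17 (43.6%) the metformin arrays all lay above the saline arrays, against 20.1% of all clusters. The 11 profiles of the tandem block had a median change of 0.63 and 10 of them (90.9%) did not overlap between the groups. The 28 dispersed profiles had a median of 0.32 and 7 (25%) did not overlap, a share near the 20.1% of all clusters. The difference between tandem and dispersed copies was not tested. Among the dispersed copies, the 11 annotated as rRNA had a median change of 0.42 with 4 not overlapping (36.4%), and the 17 pseudogenes one of 0.28 with 3 not overlapping (17.6%, under the share of all clusters).

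The profile shared by 26 symbols under Rn5s, the main 5S rRNA gene, measured 14.87, 14.44 and 15.25 on metformin arrays 1 to 3, against 13.92, 14.10 and 14.27 on saline arrays 1 to 3. Every metformin array was above every saline array, though metformin 2 stood only slightly above saline 3. The change was 0.76 ± 0.20 (SE, n = 3 each), or 1.69-fold, with an adjusted p of 0.0441 in limma. The second Rn5s profile, a separate row for 25 of the same symbols, separated the groups too. It measured 14.57, 14.24 and 14.92 on metformin arrays against 13.63, 13.92 and 13.82 on saline arrays. Its change was 0.78 ± 0.18 (SE), with an adjusted p of 0.0305 in the fit of all clusters, where the first Rn5s profile had 0.0514.

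The tandem copy n-R5s136, placed by its symbol, had its own profile and the highest change among the tested 5S rows. It measured 14.06, 13.78 and 14.34 on metformin arrays against 12.95, 13.10 and 13.38 on saline arrays, a change of 0.92 ± 0.17 (SE), 1.89-fold, adjusted p = 0.0168. Its second row, not in the gene fit, changed by 0.95, with the same order of arrays. The groups did not overlap in either row.

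Another tandem profile, n-R5s115, measured 11.93, 12.33 and 12.37 on metformin arrays against 11.14, 11.82 and 11.40 on saline arrays. Here saline 2 came close to metformin 1 without reaching it. The change was 0.75 ± 0.20 (SE), adjusted p = 0.0415. The profile n-R5s112, shared with n-R5s120 and n-R5s125, measured 11.10, 11.17 and 11.43 on metformin arrays against 10.51, 10.64 and 10.66 on saline arrays. The groups were well separated, with a change of 0.63 ± 0.12 (SE), adjusted p = 0.0156. The profile of n-R5s109 measured 10.85, 11.14 and 11.30 on metformin arrays against 10.44, 10.51 and 10.68 on saline arrays. The groups again did not overlap, and the change was 0.55 ± 0.14 (SE), adjusted p = 0.0366.

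These 5 profiles, all of the tandem block, were the only 5S calls in the gene fit, 5 of 34 or 14.7%, against 6.71% of all genes. Among the fits that left out an array, the call for n-R5s112 was lost only without saline replicate 1 (adjusted p = 0.0662). Those for Rn5s, n-R5s115 and n-R5s109 each held in only 1 of the 6 fits that left out an array, with adjusted p up to 0.148, 0.129 and 0.125, and that for n-R5s136 was lost without metformin replicate 1 or saline replicate 1, up to 0.0692. Without saline replicate 1 limma called 0 of the 34 5S profiles, 12 of them with an unadjusted p under 0.05, in a fit that called 1.59% of all genes higher. The count was 2 without metformin replicate 1 (2.45% of all genes), 2 without metformin replicate 3 (3.99%), 3 without metformin replicate 2 (2.65%) and 12 with the replicate block (8.81%).

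Among the dispersed copies, the pseudogene n-R5s71 had the largest change, 0.74, but measured 10.41, 9.89 and 11.08 on metformin arrays against 9.46, 9.36 and 10.35 on saline arrays. Saline 3 lay above metformin 2, so the groups overlapped. At the low end, n-R5s7 measured 4.43, 3.85 and 3.84 on metformin arrays against 4.44, 3.62 and 4.26 on saline arrays, a change of -0.07, adjusted p = 0.883. The groups were mixed, and n-R5s41 (change 0.07, adjusted p = 0.882) and n-R5s12 (0.12, adjusted p = 0.644), both pseudogenes too, were no clearer. Leaving out single arrays moved n-R5s7 between -0.31 and 0.10. The 3 profiles that did not pass the filter, n-R5s204, n-R5s92 and n-R5s60, are pseudogenes with changes of 0.32, 0.20 and 0.14.

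The arrays kept a similar order across much of the 5S group. Metformin 3 was the highest metformin array in 25 of the 39 profiles and metformin 2 the lowest in 22, and saline 3 was the highest saline array in 28. Saline 3 was thus the saline array nearest to the metformin group for most 5S copies, in the scattered ones above all (21 of 28).

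Spliceosomal RNAs had a larger median change than 5S, a difference that was not tested. Over the 14 spliceosomal profiles, U11 and U12 included, all were above 0, the median change was 0.83 and 11 (78.6%) did not overlap between the groups, against 20.1% of all clusters. In the gene fit 6 of 8 were called higher, against 6.71% of all genes, and Rnu12 and Rnu5g were not called.

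U2 pairs with the branch point of the intron, and its gene Rnu2-10 had the largest change of all members. It measured 14.17, 14.81 and 14.43 on metformin arrays against 12.54, 13.33 and 13.17 on saline arrays. The lowest metformin array stood above the highest saline array by most of a log2 unit. The change was 1.45 ± 0.24 (SE, n = 3 each), 2.74-fold, adjusted p = 0.0121. A second Rnu2-10 profile measured 13.43, 14.10 and 13.76 on metformin arrays against 11.84, 12.83 and 12.50 on saline arrays, a change of 1.38. In both rows metformin 2 was the highest and saline 1 the lowest array.

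U1 recognises the 5′ splice site, and its genes gave 7 profiles, 6 of them without overlap. Rnu1b6 measured 14.73, 14.93 and 15.05 on metformin arrays against 13.76, 14.09 and 13.96 on saline arrays. The groups were clearly apart, with a change of 0.96 ± 0.13 (SE), 1.95-fold, adjusted p = 0.00735. A second Rnu1b6 row followed the first to within 0.05 on every array around its own mean and adds nothing of its own. The row shared by Rnu1b1 and Rnu1b2 measured 14.54, 14.60 and 14.88 on metformin arrays against 13.69, 13.98 and 13.88 on saline arrays, a change of 0.82 ± 0.13 (SE), adjusted p = 0.0109. Its groups did not overlap.

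Rnu1a1, the U1 gene on chromosome 11, measured 16.52, 16.69 and 16.77 on metformin arrays against 15.83, 16.27 and 16.00 on saline arrays. Saline 2 came closest to the metformin arrays. The change was 0.63 ± 0.14 (SE), adjusted p = 0.0250, and 6 clusters outside the rule held the same values. The call for Rnu1a1 was lost in 4 of the 6 fits that left out an array (all except those without metformin replicate 1 or saline replicate 2), with adjusted p up to 0.0858. It was lost too after centring each array on its median (0.0525) or quantile normalization (0.131). The 1 U1 row that overlapped was a separate cluster of Rnu1b2, at 6.27, 5.99 and 6.17 on metformin arrays against 5.78, 5.69 and 6.10 on saline arrays. Its change was 0.28, adjusted p = 0.257 in the fit of all clusters.

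U6 forms part of the catalytic centre and, unlike the other spliceosomal RNAs here, is made by RNA polymerase III. Rnu6 measured 16.53, 16.44 and 16.62 on metformin arrays against 15.79, 15.75 and 15.49 on saline arrays. The groups were separated by more than the spread within either, with a change of 0.86 ± 0.11 (SE), 1.81-fold, adjusted p = 0.00735. The same values stood in 48 clusters of 47 other symbols, so the U6 copies behind them cannot be told apart. A second Rnu6 cluster measured 12.81, 13.03 and 13.85 on metformin arrays against 12.83, 12.70 and 12.86 on saline arrays. There only metformin 3 and metformin 2 were above all saline arrays, and the change of 0.43 had an adjusted p of 0.337 in the fit of all clusters.

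U5 holds the exons together during splicing. Its gene Rnu5g measured 8.73, 8.97 and 8.52 on metformin arrays against 8.70, 8.35 and 8.45 on saline arrays. The groups overlapped, and the change of 0.24 ± 0.15 (SE) had an adjusted p of 0.301 and a 95% interval of -0.10 to 0.58. The interval of Rnu2-10 starts at 0.90.

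**Figure D2:**
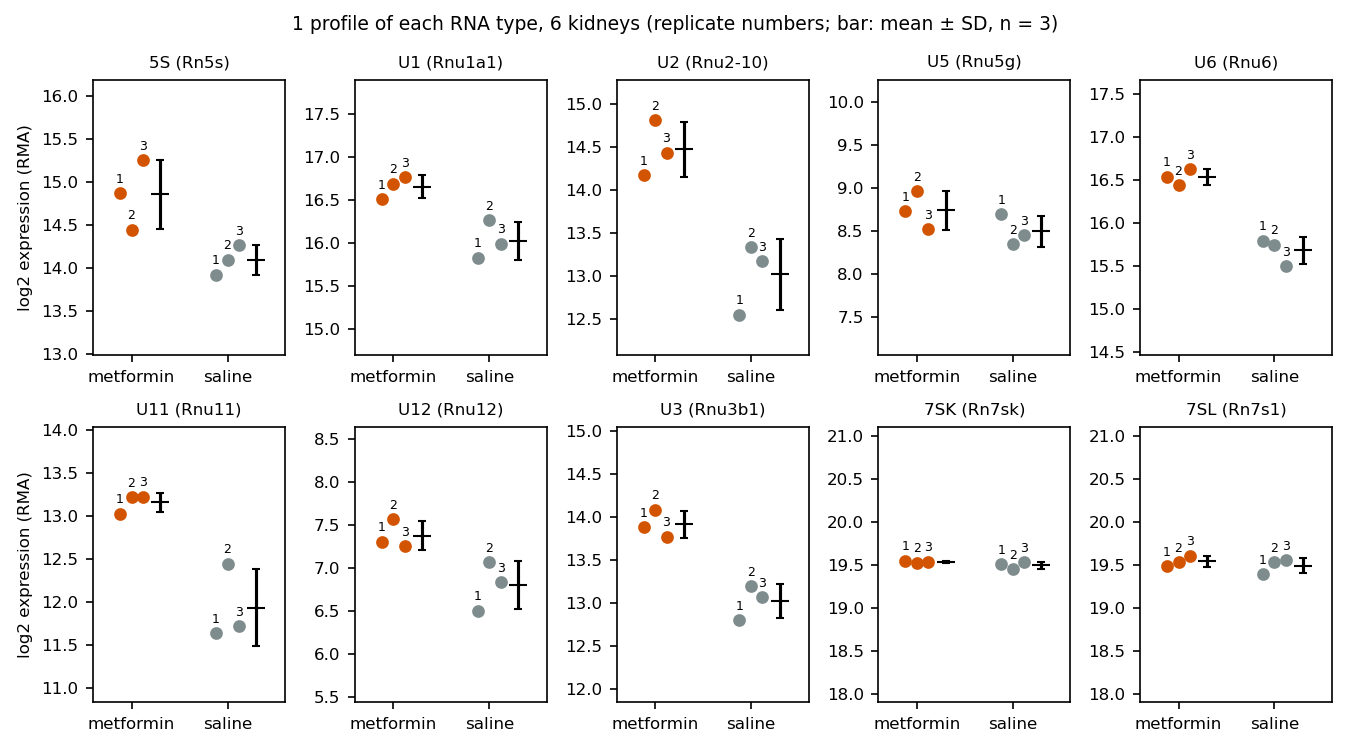
Log2 expression (y axis) of 1 profile of each RNA type on the 3 metformin and 3 saline arrays, numbered by replicate, with group means and SD beside the points. Every panel spans the same number of log2 units, so that U2, U11, U3 and U6 can be seen to separate widely, U5 to overlap, and 7SK and 7SL to stay near 19.5 in both groups.

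The minor spliceosome removes a rare class of introns and was represented by Rnu11 and Rnu12. Rnu11 measured 13.03, 13.23 and 13.23 on metformin arrays against 11.65, 12.45 and 11.72 on saline arrays. The metformin arrays lay close together and saline 2 stood well above the other saline arrays. The change was 1.22 ± 0.21 (SE, n = 3 each), 2.33-fold, adjusted p = 0.0138, and the call was lost without metformin replicate 2 or saline replicate 1 (adjusted p up to 0.0555). Rnu12 measured 7.30, 7.57 and 7.25 on metformin arrays against 6.50, 7.06 and 6.83 on saline arrays. The groups did not overlap, but the change of 0.58 ± 0.16 (SE) had an adjusted p of 0.0510 and did not pass, while with the replicate block the p was 0.0260.

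U3 is a small nucleolar RNA, placed here by the symbol Rnu3, and all 6 of its profiles were higher on every metformin array than on any saline array. Their median change was 0.62. The row of Rnu3b1, shared with Rnu3b2 and Rnu3b3, measured 13.89, 14.09 and 13.78 on metformin arrays against 12.80, 13.20 and 13.07 on saline arrays. Its groups were well apart, with a change of 0.89 ± 0.14 (SE), 1.86-fold, adjusted p = 0.0100. Rnu3b4 had exactly the same change and test, since its row equalled that of Rnu3b1 apart from a constant offset of -1.84, so the 2 calls are not separate evidence. A second row of Rnu3b1, Rnu3b2 and Rnu3b3 measured 13.25, 13.50 and 13.23 on metformin arrays against 12.55, 12.64 and 12.62 on saline arrays, a change of 0.72.

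Rnu3a, the U3 gene on chromosome 10, measured 10.54, 10.62 and 10.45 on metformin arrays against 10.08, 10.06 and 9.94 on saline arrays. The groups did not overlap, and the change was 0.51 ± 0.09 (SE), adjusted p = 0.0162, lost without metformin replicate 1 or 2 or saline replicate 1 (up to 0.0560). Its second row changed by as much, 0.51, but with more spread and an adjusted p of 0.0984 in the fit of all clusters. Metformin 2, which was the lowest metformin array for most 5S profiles, was the highest for 5 of the 6 U3 profiles.

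The calls for Rnu1b1, Rnu1b6, Rnu2-10, Rnu3b1, Rnu3b4 and Rnu6 held in all 6 fits that left out 1 array, and no other member call did.

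7SK and 7SL, both made by RNA polymerase III, had changes near 0. Rn7sk measured 19.55, 19.52 and 19.54 on metformin arrays against 19.51, 19.45 and 19.53 on saline arrays, a change of 0.04 ± 0.08 (SE), adjusted p = 0.794. The row shared by Rn7s1 and Rn7s2, the 7SL genes, measured 19.48, 19.53 and 19.61 on metformin arrays against 19.39, 19.53 and 19.55 on saline arrays, a change of 0.05 ± 0.09 (SE), adjusted p = 0.762. The groups overlapped in both rows, and these are among the highest values on the arrays, whose maxima were 19.8 to 19.9. Whether the signal was limited at such levels was not tested. A second Rn7sk row, at 19.41, 19.38 and 19.38 on metformin arrays against 19.33, 19.35 and 19.35 on saline arrays, did not overlap, with a change of 0.04. The direction of these small changes turned with the scaling: after median-centring, the median of the 7SK and 7SL profiles was -0.05.

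Changes of different RNA types were set against each other within arrays in 4 pairs, picked with their changes known. The pairs against Rn7sk and Rn7s1, whose rows lie near the highest values on the arrays, are not read here. Rnu2-10 changed by 1.21 ± 0.37 (SE, n = 3 each) more than Rnu5g, and Rnu11 by 0.65 ± 0.17 more than Rnu12. In both the within-array difference was larger on all metformin arrays than on any saline array. The two-sided exact permutation p was 0.1 in both, and 0.1 after adjustment over the 4 pairs. As 0.1 is the smallest p that 3 arrays against 3 can give, no conclusion is drawn from the test. Both pairs also set a row of higher signal against a row of lower signal. The means over all arrays were 13.74 for Rnu2-10 and 8.62 for Rnu5g, and 12.55 for Rnu11 and 7.09 for Rnu12. Whether these differences go with RNA type or with signal was not tested.

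**Figure D3:**
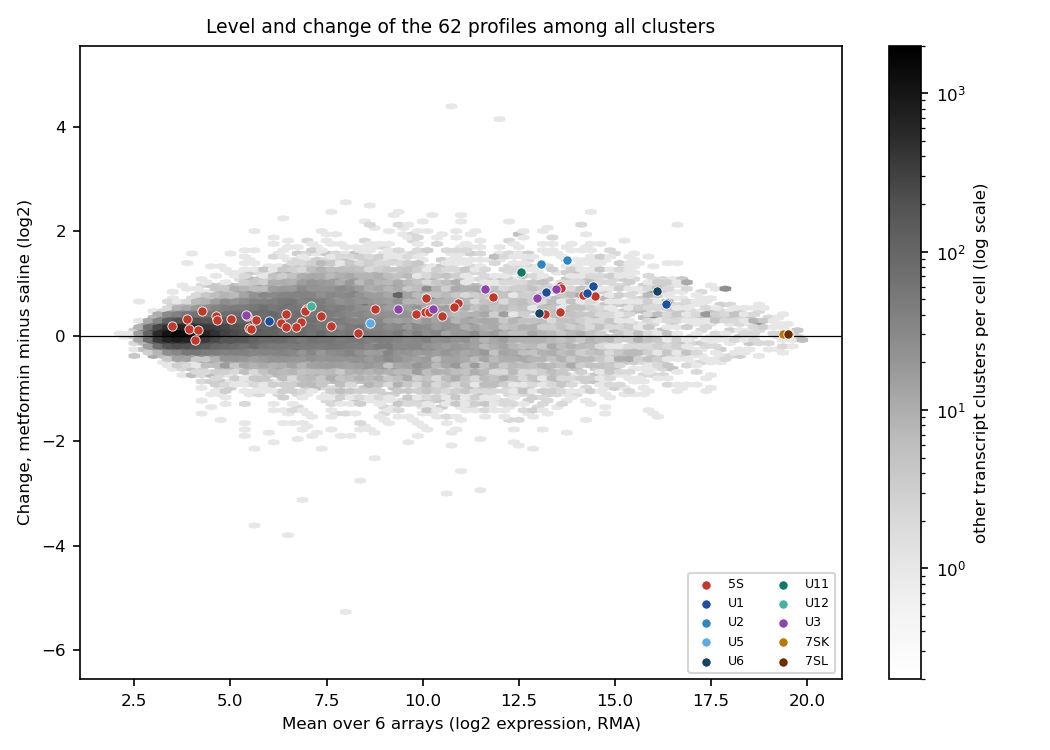
Change (y axis, metformin minus saline, log2) against the mean over the 6 arrays (x axis, log2 expression) for the 62 profiles, coloured by RNA type, over a grey density of all other clusters. Most coloured points lie above 0 over the whole range of levels, and the 3 points at the far right, 7SK and 7SL, lie near 0.

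The change varied with the signal of the cluster, as the plot of level and change shows. It had a median of 0.30 over the 15 profiles with a mean under 6, of 0.28 over the 13 from 6 to 9, of 0.53 over the 14 from 9 to 13 and of 0.84 over the 17 from 13 to 17. Over the 3 above 17 it was 0.04. Of the 28 profiles under 9, 23 were dispersed 5S copies, 1 was a tandem 5S row and 4 were other RNAs. Of the 34 at 9 or more, 5 were dispersed, 10 tandem and 19 other RNAs, so RNA type and signal overlapped in large part. Their parts in the change were not tested, and the levels of different clusters rest on different probes and are no measure of RNA amounts.

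Scaling changed the size of the differences more than their direction. Centring each array on its median moved the median over the 62 profiles to 0.37, with 57 above 0, and quantile normalization to 0.34, with 56 above 0. The median over all 65956 clusters was 0.07 as deposited, -0.03 after centring and -0.01 after quantile normalization. Over the genes past the filter it was 0.02, -0.07 and -0.10. Relative to the median of all clusters, 58 of the 62 profiles were above it as deposited, 58 after centring and 57 after quantile normalization. In the gene fit, limma called 10 of 47 member profiles higher after centring, 2 of them 5S, against 4.13% of all genes. After quantile normalization it called 13, 5 of them 5S, against 4.5% of all genes. The 5S calls were not the same ones: in limma Rn5s lost its call after centring (adjusted p = 0.0539) and after quantile normalization (0.0592). The calls for n-R5s115 and n-R5s109 were lost after centring (0.0777 and 0.0756). With centring and every cluster unfiltered, 14 of 62 were called higher, against 4.63% of all clusters.

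Other small RNA genes were higher in metformin kidneys as well. Among the genes tested, with identical rows counted once, the members' median change of 0.46 stood beside 0.45 for 642 other genes that RefSeq annotates as snRNA. Of the member profiles 29.8% were called higher, 9 of 13 (69.2%) of the U, 7SK and 7SL rows and 14.7% of the 5S rows, against 256 (39.9%) of those 642, none of which was called lower. The 9 include Rnu3b1 and Rnu3b4, which are the same row apart from a constant offset. In the fit of all clusters without a filter, 33.9% of the 62 member profiles and 28.2% of 827 other snRNA rows were called higher. The order of members and other snRNA genes thus depended on which rows were tested. Small nucleolar RNA genes had a median of 0.24 (14.2% of 619 higher) and microRNA genes one of 0.23 (18.5% of 379 higher). Protein-coding genes had a median of -0.01, with 4.34% of 14763 higher and 11.8% lower. These differences between classes were not tested.

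**Figure D4:**
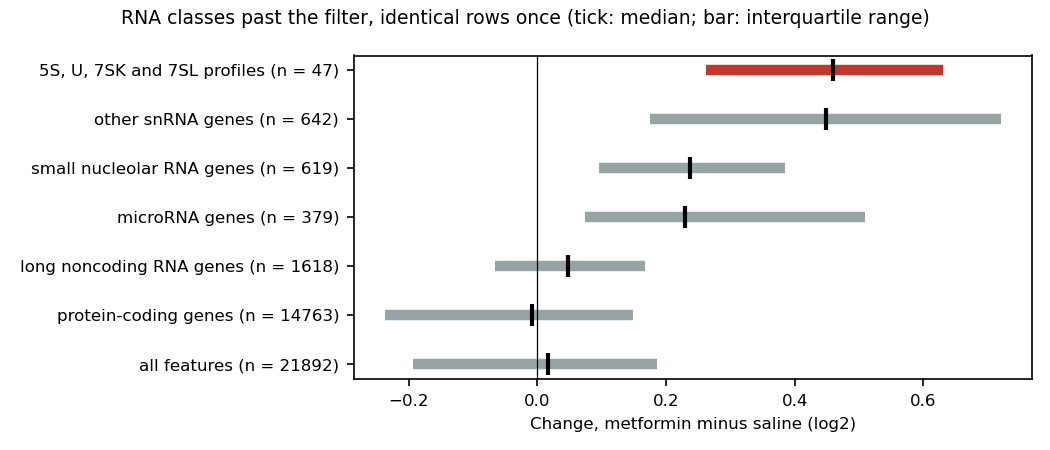
Change (x axis, metformin minus saline, log2) by RNA class among genes past the filter, with the median as a tick and the interquartile range as a bar. The bars of the 47 member profiles, 642 other snRNA genes, small nucleolar RNA genes and microRNA genes lie wholly above 0 and overlap each other. Those of long noncoding RNA genes and protein-coding genes span 0.

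The genes of the proteins that make, process or bind these RNAs moved in both directions. The lists held 143 symbols, with more than 1 name for some genes, and 119 were tested. Rpl5, Snrpa, Snrpd1, Snrpd2, Cdk9 and Nop56 were among the symbols without a gene row and were not tested. Of the 119, 4 were called higher and 14 lower at an adjusted p under 0.05 (limma), with a median change of -0.07. Called or not, 46 had a change above 0 and 73 below. Among all genes the shares were 6.71% higher and 9.08% lower. In the 6 fits that left out an array, 5 of the 18 calls held in all, those for Gtf3c3, Ints14, Snapc3, Snrnp70 and Prmt5. Those for Bdp1, Snapc2 and Ints9 held in none, and 8 held in 1 only. The split moved with the scaling, to 2 higher and 21 lower after median-centring and to 2 higher and 32 lower after quantile normalization.

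Of the 5S ribonucleoprotein and 5S transcription genes, none of 7 passed, though Rpl11, a protein that binds 5S rRNA before it joins the ribosome (0.31), and Ro60, which binds misfolded 5S rRNA (-0.26), had an unadjusted p under 0.05. Gtf3a, transcription factor IIIA itself, changed by -0.26 with overlapping groups. Ssb, the La protein that protects the ends of new polymerase III transcripts, changed by 0.36 with an adjusted p of 0.250, or 0.0465 with the replicate block. Among 23 genes of RNA polymerase III and its factors, 1 was called higher and 1 lower. Bdp1, a subunit of initiation factor TFIIIB, measured 10.45, 10.08 and 10.06 on metformin arrays against 9.74, 9.76 and 9.75 on saline arrays, a change of 0.45 with an adjusted p of 0.0497. It was 0.0503 in the blocked fit, 0.0685 after median-centring, 0.0641 after quantile normalization and up to 0.143 with an array left out, so the call for Bdp1 was lost in each. Gtf3c3, a subunit of TFIIIC, measured 8.97, 8.73 and 8.89 on metformin arrays against 9.43, 9.47 and 9.52 on saline arrays, a change of -0.61, adjusted p = 0.0118. The groups did not overlap for Bdp1 or Gtf3c3, and the call for Gtf3c3 held in every fit that left out an array.

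Of 23 genes for snRNA transcription and 3′ end processing, 1 was called higher and 5 were called lower. Snapc3 and Snapc2, subunits of the complex that starts snRNA transcription, were called in opposite directions. Snapc3 measured 11.25, 10.94 and 10.91 on metformin arrays against 10.05, 10.37 and 10.09 on saline arrays, a change of 0.87 ± 0.14 (SE), adjusted p = 0.0109. Snapc2 fell by 0.44, adjusted p = 0.0420, but its call was lost with any array left out (0.0618 to 0.109). The 4 other genes called lower encode subunits of Integrator, the complex that cuts snRNA precursors. Of these Ints14 fell most, to between 9.96 and 10.03 on metformin arrays, against 10.73 to 10.84 on saline arrays, a change of -0.81 ± 0.09 (SE), adjusted p = 0.00735. Ints2 (-0.47), Ints10 (-0.39) and Ints9 (-0.38) fell less, with adjusted p between 0.0303 and 0.0446. The call for Ints9 was lost with any array left out (up to 0.140), and those for Ints2 and Ints10 held only without saline replicate 2 (otherwise up to 0.102 and 0.0966).

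Among 33 genes of snRNP proteins, 1 was called higher and 1 lower. Snrnp70, the U1 protein that binds a stem loop of U1 RNA, measured 12.09, 12.07 and 11.92 on metformin arrays against 11.19, 11.29 and 11.07 on saline arrays. Its groups were far apart, with a change of 0.84 ± 0.10 (SE), adjusted p = 0.00735. Lsm4, part of the ring at the end of U6, measured 9.42, 9.34 and 9.15 on metformin arrays against 10.31, 9.71 and 9.91 on saline arrays, a change of -0.68 ± 0.16 (SE), adjusted p = 0.0343, a call that held only without saline replicate 2 (otherwise up to 0.0899). Prpf31, a protein of the U4/U6 particle, changed by -0.36 and passed only with the replicate block (adjusted p = 0.0472).

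Of 12 genes of the SMN complex and its partners, which load the Sm ring onto new snRNAs, 2 were called lower. These were Prmt5, the arginine methyltransferase of Sm proteins (-0.73, adjusted p = 0.0107), and the helicase Ddx20 (-0.45, adjusted p = 0.0198). The change was below 0 in 10 of the 12. Hexim2, which binds P-TEFb on 7SK, was the only 1 of 6 genes of the 7SK particle called, as lower (-0.42, adjusted p = 0.0385). Of the 6, 3 had a change above 0 and 3 below. Of 8 signal recognition particle genes, 7 had a change below 0 and 2 were called lower. Srp68 fell by 0.69 and Srpr, the receptor, by 0.50, adjusted p = 0.0315 and 0.0238. With an array left out, the calls for Ddx20, Hexim2 and Srp68 held only without saline replicate 2 (otherwise up to 0.0768, 0.128 and 0.0999), and that for Srpr only without saline replicate 2 or metformin replicate 3 (up to 0.0708).

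The U3 particle held changes both ways among 7 genes. Imp4 and Imp3, proteins of the U3 particle, fell by 1.04 and 0.88, adjusted p = 0.0190 and 0.0358. Imp4 measured 8.91, 8.97 and 8.92 on metformin arrays against 10.48, 9.76 and 9.68 on saline arrays. Fbl, the methyltransferase fibrillarin, measured 9.60, 9.63 and 9.37 on metformin arrays against 9.19, 9.15 and 9.02 on saline arrays, a change of 0.41, adjusted p = 0.0417. The call for Fbl held only without metformin replicate 3 and that for Imp3 only without saline replicate 3 (otherwise up to 0.123 and 0.126), while that for Imp4 was lost without metformin replicate 1 or 2 (up to 0.0618). Fbl was also lost after median-centring (0.103) and quantile normalization (0.0617). The groups were apart in each, and the U3 RNA rows were all on the higher side.

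**Figure D5:**
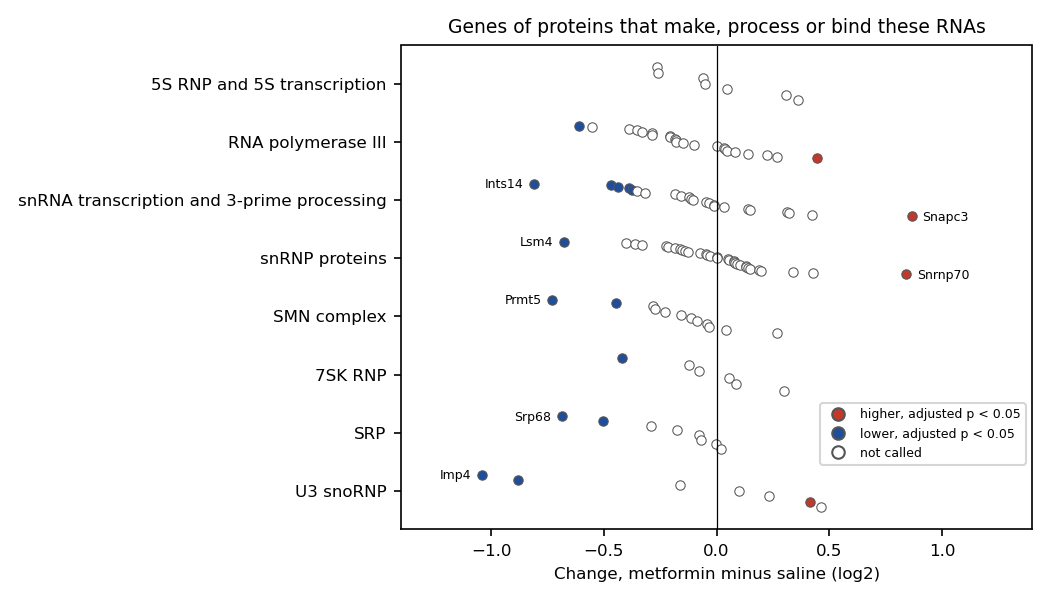
Change (x axis, metformin minus saline, log2) of the 119 tested genes of proteins that make, process or bind these RNAs, by list, with genes past an adjusted p of 0.05 filled. The filled points are 4 on the higher side, with Snapc3 and Snrnp70 farthest right, and 14 on the lower side, with Imp4 farthest left.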

How the data were processed

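Total RNA of snap-frozen kidneys was labelled with biotin for a whole-transcript array, per the labels' protocols. Each transcript cluster has 1 log2 value per array, deposited by the authors after RMA. The submitters' processing notes name the Transcriptome Analysis Console, version 4.0. Values reach 19.9, so fold changes hold on the deposited scale only. No source used here names the probe definition or a genome build.

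Members, protein gene lists and cell markers were chosen with earlier results of these data known. Symbols came from the platform annotation and were updated through RefSeq (GRCm38.p6), which listed all 87 member symbols. No sequences of the members are printed.

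Clusters with a mean at or under 4.03, the lowest 33.3%, were left out, and the cluster with the highest mean was kept per symbol. limma 3.58.1 (R 4.3.3) was fitted with eBayes to all 6 arrays, metformin minus saline, and was checked on simulated data. Alternatives covered the filter, scaling, clusters per gene, variance model, array weights, replicate block and left-out arrays. 3 combinations with all clusters unfiltered were chosen after seeing the data.

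The deviations of same-numbered arrays from their group means correlated at 0.118, 0.145 and 0.541, each over 0.1, which meets the mark set for pairing. The main tests have no block, and blocked values stand beside the results they change or with the alternatives below. Metformin 1 correlated more with saline 2 (0.299) than with saline 1 (0.118). The labels do not say that replicate numbers mark pairs, so whether the arrays were paired is not known.

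Named were, of each RNA type, the profile with the highest mean, every called profile, and the 5S profiles with the 3 lowest and 3 highest changes. In the lists, every called gene was named. Of the 3 genes with the smallest p in a list, uncalled ones were named only for the 5S and snRNP protein lists. Profiles and genes named beyond this rule were chosen after their values were seen.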

Additional observations from a re-analysis of the deposited data

How the results depend on the processing

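Every alternative kept the median change of all member profiles above 0, at 0.34 to 0.46 across the scalings, the lowest being 0.34 after quantile normalization. Of 47 member profiles, 14 were called, against 22 with the replicate block, 22 of 59 when all transcript clusters past the filter were tested, 6 to 15 when 1 array was left out, and 0 with a plain equal-variance test per gene, in which 20 had an unadjusted p under 0.05. The 5S count of 5 became 10 with array weights, 12 with the block, 2 after median-centring, 3 of 39 after median-centring with all clusters and no filter, 0 to 5 with 1 array left out and 0 in the plain test (10 with an unadjusted p under 0.05). The count of 9 for the other RNAs became 15 of 23 with all clusters, with or without the filter, and 10 with the block. It was 6 to 10 with 1 array left out and 0 in the plain test (10 with an unadjusted p under 0.05). The count of 18 protein genes became 34 after quantile normalization, 23 with the block (6 higher and 17 lower), 5 to 13 with 1 array left out and 1 in the plain test. No named gene that was called turned its direction under any alternative. Uncalled Rn7sk and Rn7s1 turned after median-centring (to -0.05 and -0.04), n-R5s41 after median-centring, quantile normalization and array weights, and n-R5s41, n-R5s7 and n-R5s12 with some arrays left out. With the replicate block, Rnu12, Ssb and Prpf31 gained a call and Bdp1 lost one, and no other named gene's call changed. The cause of these shifts was not tested. With 3 arrays per group, the number of arrays limits the precision, and copies that share probes cannot be resolved. The probes give no separate reading of a mature RNA, a precursor or a copy.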

Other observations

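A U7 RNA symbol, Rnu7, occurs in clusters that the annotation gives several symbols, so they are outside the rule. The cluster annotated Cckar and Rnu7 measured 8.23, 8.97 and 9.35 on metformin arrays against 9.52, 9.38 and 10.29 on saline arrays, a difference of -0.88. The cluster annotated Grcc10 and Rnu7 measured 5.26, 5.71 and 5.50 on metformin arrays against 5.93, 5.88 and 5.67 on saline arrays, a difference of -0.34. In the first, metformin 3 lay close to the lower saline arrays without reaching them. In the second, the groups overlapped. Which of the symbols gave the signal was not tested, and no test was run on these clusters. Clusters without a gene symbol of their own, 34588 distinct rows, had a median change of 0.10, and 10.2% were called higher and 0.78% lower in the fit of all clusters without a filter. There, 33.9% of the 62 member profiles were called higher and none lower.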
